A study of Sus scrofa with 24 samples.

Results

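The effect of maternal vitamin E on the fat of weaned piglets was described over both levels of a second dietary antioxidant, hydroxytyrosol. Dorsal subcutaneous fat of 24 Iberian piglets, 1 male per litter, was profiled by RNA sequencing after their dams had received 1 of 4 diets in late gestation and lactation. The high vitamin E diets were VE, with 100 mg/kg of all-rac-alpha-tocopheryl acetate, and VEHT, with 100 mg/kg and 1.5 mg/kg of hydroxytyrosol. The low vitamin E diets were C, the control, with 30 mg/kg, and HT, with 30 mg/kg and 1.5 mg/kg of hydroxytyrosol. These are amounts added to the feed, and the vitamin E contents that the study analysed in the high and low diets lay closer together. Each diet had 6 piglets, so that all 24 libraries of the series entered, 12 with high against 12 with low vitamin E. The piglets were exposed through the dam, so that a level in fat stands for the maternal diet and not for a dose given to the piglet. The members were defined as genes whose difference had the same direction in VE over C and in VEHT over HT, which share no library. Of the 17179 genes that could be tested in both comparisons, 6520 met this definition, 2937 higher and 3583 lower with high vitamin E.

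Vitamin E is a group of fat-soluble tocopherols and tocotrienols that stop the chain reaction of lipid peroxidation in membranes, and adipose tissue is a main store of it. Hydroxytyrosol is a phenol of the olive with antioxidant activity in water and lipid phases. Selenium-dependent glutathione peroxidases, peroxiredoxins, superoxide dismutases and the NRF2 transcription factor form the enzyme side of the same defence. Fat in young pigs grows by filling adipocytes with newly made fatty acids, and it also holds stromal progenitors, vessels and immune cells.

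The libraries held 40616467 to 61919211 gene counts with high vitamin E and 36614639 to 57119619 with low vitamin E. Adipocyte markers were abundant in every library, with summed levels of 1896 to 21040 CPM (gene counts scaled to the same library total) with high vitamin E and 2112 to 20540 CPM with low vitamin E. Immune markers set 3 libraries apart: VEHT piglet G141 and C piglets G041 and G047. These 3 libraries also had the lowest mean adipocyte marker levels, at 6.73, 6.45 and 6.71 log2 CPM, against 7.90 to 9.90 in all others. Their summed macrophage level reached 15150 CPM in VEHT and 15220 CPM in C, while the median was 1405 CPM in VE, 1379 CPM in C, 2129 CPM in VEHT and 917 CPM in HT. Skeletal muscle markers varied more widely still, from 2.61 to 41090 CPM with high vitamin E and from 8.06 to 33210 CPM with low vitamin E. In such bulk tissue, fewer cells of a type and less RNA per cell cannot be told apart. Because of their weight, the agreement over all genes and some of the lists and genes are given with and without the 3 immune-rich libraries. Other values rest on all 24 libraries unless stated. The interaction was fitted with all 24 libraries only.

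SLC30A2, a transporter that moves zinc into vesicles, and MDFI, an inhibitor of myogenic transcription factors, had higher medians with high maternal vitamin E at both hydroxytyrosol levels, a difference that DESeq2 called and edgeR did not. Few genes differed: the edgeR quasi-likelihood test called 0 of 17602 genes (0%) at a Benjamini-Hochberg q no larger than 0.10 together with a 1.5-fold or larger difference. The smallest q was 0.347, and 691 genes (3.93%) had an unadjusted p below 0.05, 292 of them higher (1.66%) and 399 lower (2.27%) with high vitamin E. DESeq2 on the same counts called 7 genes (0.0398%), 5 higher (0.0284%) and 2 lower (0.0114%), with 775 (4.40%) at an unadjusted p below 0.05. Limma voom with sample quality weights called 2 (0.0114%), with 1143 (6.49%) at an unadjusted p below 0.05. SLC30A2, MDFI, JAKMIP2 and the unnamed genes ENSSSCG00000019258 and ENSSSCG00000037285 were the higher ones in DESeq2, SPMAP1 and ENSSSCG00000039664 the lower ones. Voom called SPMAP1 and ENSSSCG00000037285.

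SLC30A2, also known as ZnT2, is best known from the mammary gland, where it loads zinc into secretory vesicles. It lies at chr6:83478761-83484876 on the minus strand of Sscrofa11.1. Its level was 0.363, 2.31 and 6.95 CPM (lowest, median and highest of 6) in VE piglets, against 0.136, 0.311 and 0.734 CPM in C piglets. In VEHT piglets it was 0.386, 4.49 and 14.9 CPM, against 0.0986, 0.951 and 1.80 CPM in HT piglets. In VE, 5 of 6 piglets lay above every C piglet, and in VEHT 4 of 6 lay above every HT piglet, so that the groups overlapped at their edges in both comparisons. The main effect was a log2 fold change of 2.88 ± 0.605 (SE, 12 against 12; edgeR q = 0.728; DESeq2 q = 0.00142). The log2 fold change was 3.03 ± 0.690 for VE over C and 2.73 ± 0.925 for VEHT over HT, and the interaction was -0.29 (edgeR q = 0.936). Leaving out any 1 library left the log2 fold change between 2.64 and 3.06, and without the 3 immune-rich libraries it was 3.11.

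MDFI, the MyoD family inhibitor, binds myogenic factors and keeps them from DNA. It lies at chr7:36829060-36846995 on the plus strand. VE piglets had 3.19, 5.21 and 6.75 CPM (lowest, median and highest), against 2.48, 2.73 and 3.89 CPM in C piglets. VEHT piglets had 2.58, 3.19 and 6.37 CPM, against 1.67, 2.39 and 2.88 CPM in HT piglets. Again 5 of 6 VE piglets were above all C piglets and 4 of 6 VEHT piglets above all HT piglets. The log2 fold change was 0.73 ± 0.17 (SE; edgeR q = 0.999; DESeq2 q = 0.0520), with 0.78 ± 0.238 in VE over C and 0.66 ± 0.275 in VEHT over HT. It stayed between 0.62 and 0.78 when any 1 library was left out.

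The 250 bases before the RefSeq start of SLC30A2 and MDFI are shown because these are the genes with a symbol that DESeq2 called, with the same sign in both comparisons and a mean of at least 1 CPM in at least 1 diet. They were read from Sscrofa11.1 in the direction of transcription, at chr6:83484877-83485126 (minus strand) for SLC30A2 and at chr7:36828810-36829059 (plus strand) for MDFI. Both strands were searched for a metal response element (TGCACNC or TGCGCNC), an antioxidant response element (TGACNNNGC) and a myogenic E-box (CAGCTG), and capitals mark a match.
SLC30A2: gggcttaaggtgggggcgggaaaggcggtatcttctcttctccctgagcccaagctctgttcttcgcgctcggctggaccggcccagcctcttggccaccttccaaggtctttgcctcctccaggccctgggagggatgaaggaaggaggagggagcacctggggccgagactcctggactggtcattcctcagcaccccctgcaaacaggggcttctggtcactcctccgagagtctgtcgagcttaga
MDFI: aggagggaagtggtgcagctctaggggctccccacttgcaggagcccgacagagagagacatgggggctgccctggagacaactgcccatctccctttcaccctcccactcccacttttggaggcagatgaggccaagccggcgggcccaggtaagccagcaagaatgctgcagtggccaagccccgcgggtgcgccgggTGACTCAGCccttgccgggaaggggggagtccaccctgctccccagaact
None of these letters occurred in the SLC30A2 window. The MDFI window held 1 antioxidant response element match, which began 50 bases before the gene start and overlapped no other motif. Among 19556 promoter windows of the same length, 9.97% held this motif, 24.3% the metal response element and 13.6% the E-box, so that a match or its absence is a description only.

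**Figure D1:**
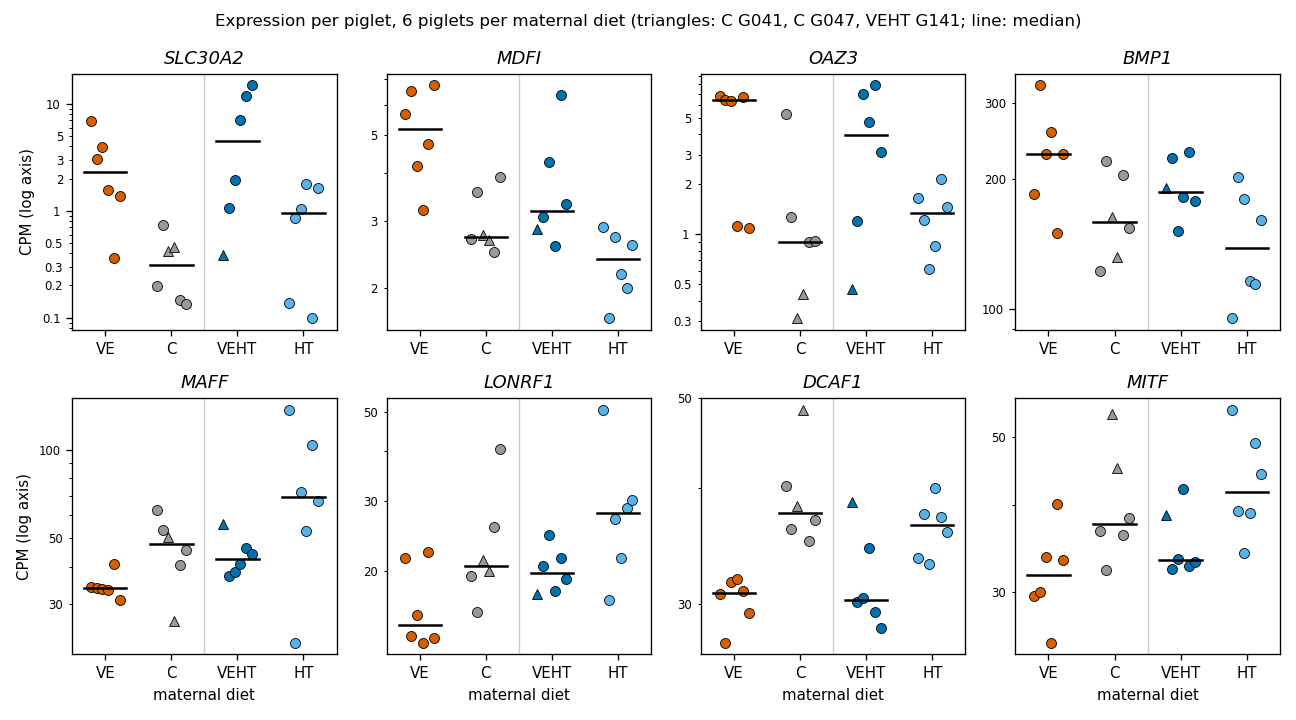
CPM on a log axis in each piglet, 6 per diet, with VE beside C and VEHT beside HT, for SLC30A2, MDFI, OAZ3, BMP1, MAFF, LONRF1, DCAF1 and MITF; lines are medians and triangles mark the 3 immune-rich libraries (C G041, C G047 and VEHT G141). SLC30A2 medians were 2.31 CPM in VE and 0.311 CPM in C, and 4.49 CPM in VEHT and 0.951 CPM in HT, with some overlap of the groups in every panel except VE against C for DCAF1.

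Over all genes, agreement between the comparisons was the exception. The same direction in VE over C and VEHT over HT was seen for 38.0% of the 17179 genes. The log2 fold changes of the comparisons were inversely related across genes (Pearson r = -0.56, Spearman rho = -0.35), which is a description over genes that are not independent of each other. Among the 2069 genes with an unadjusted edgeR p below 0.05 in VE over C, 447 (21.6%) had the same direction in VEHT over HT. Of the 1335 genes below that value in VEHT over HT, 240 (18.0%) had the same direction in VE over C. An unadjusted p below 0.05 was reached in both comparisons by 519 genes (3.02%), of which 13 (2.50%) went the same way and 506 (97.5%) the opposite way. In 495 genes (95.4%) the level was lower in VE than in C and higher in VEHT than in HT. Each comparison on its own had no edgeR call, with 2123 (12.1%) and 1378 (7.89%) genes at an unadjusted p below 0.05 for VE over C and VEHT over HT. DESeq2 called 878 genes (5.01%) in VE over C and 119 (0.681%) in VEHT over HT, while voom called 0 in each, with 1495 (8.53%) and 621 (3.55%) genes at an unadjusted p below 0.05. DESeq2 had 2518 (14.4%) and 1391 (7.96%) genes at an unadjusted p below 0.05 in these comparisons. In simulated counts, 89 of 255 DESeq2 calls for VE over C and 107 of 267 for VEHT over HT were false. For edgeR these were 11 of 149 and 15 of 150. Of the 875 DESeq2 calls of VE over C that were tested in VEHT over HT, 96 (11.0%) had the same direction there, and 2 (0.229%) also an unadjusted edgeR p below 0.05. Of the 118 DESeq2 calls of VEHT over HT that were tested in VE over C, 14 (11.9%) had the same direction and 2 (1.69%) also an unadjusted edgeR p below 0.05. Among 633 genes with an unadjusted main-effect p below 0.05, 574 (90.7%) had the same direction, which averaging over the comparisons favours. The interaction of vitamin E and hydroxytyrosol, fitted with all libraries only, passed a q of 0.10 in edgeR for 696 genes (3.95%).

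The share of the same direction depended on the 3 immune-rich libraries. Without them, 9600 of 17375 genes (55.3%) had the same direction, r was 0.01 and rho 0.11. Of 52 genes with an unadjusted p below 0.05 in both comparisons, 31 then went the same way and 21 the opposite way. Leaving out single libraries gave a share of the same direction between 34.3% (without C piglet G206) and 47.8% (without VEHT piglet G141). With the mean macrophage marker level as a covariate the share was 53.9%, and with voom sample weights 51.5%. All 13 genes of the same direction in the full set kept their direction without the 3 libraries, and 7 of them stayed below 0.05 in both comparisons.

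**Figure D2:**
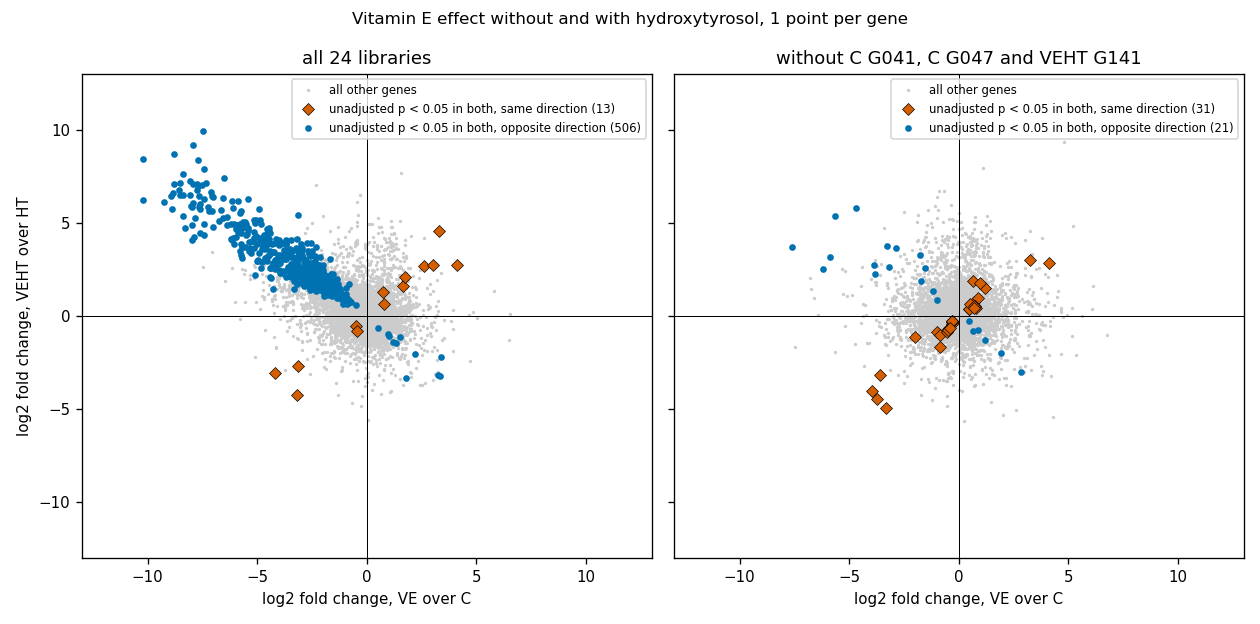
Log2 fold change of VE over C (x) against VEHT over HT (y), 1 point per gene, with all 24 libraries (left) and without C G041, C G047 and VEHT G141 (right). Orange diamonds have an unadjusted edgeR p below 0.05 in both comparisons and the same direction (13 left, 31 right), blue points the opposite direction (506 left, 21 right).

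Of the 13 genes, 8 were higher and 5 lower with high vitamin E. Besides SLC30A2 and MDFI, the higher ones with levels that can be read were OAZ3 and TOP6BL. OAZ3, an antizyme that inhibits ornithine decarboxylase and is known from the testis, had 1.10, 6.44 and 6.79 CPM (lowest, median and highest) in VE piglets, against 0.313, 0.906 and 5.34 CPM in C piglets. In VEHT piglets it had 0.472, 3.95 and 7.90 CPM, against 0.620, 1.34 and 2.15 CPM in HT piglets. The VE piglets fell into 4 with 6.39 to 6.79 CPM and 2 with 1.10 and 1.12 CPM, while C piglet G025 stood alone in its diet at 5.34 CPM. The main effect on OAZ3 was 1.63 ± 0.489 on the log2 scale (SE; edgeR q = 0.999). TOP6BL, a subunit of the complex that makes meiotic DNA breaks, had medians of 0.688 CPM in VE and 0.370 CPM in C, and of 0.602 CPM in VEHT and 0.330 CPM in HT, with 4 of 6 VE piglets above every C piglet and 4 of 6 VEHT piglets above every HT piglet (log2 fold change 1.02 ± 0.295, edgeR q = 0.999).

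Among the lower genes, MAFF and LONRF1 were well expressed. MAFF encodes a small Maf protein that pairs with NRF2 and related factors at antioxidant response elements. It had 30.8, 33.9 and 40.9 CPM (lowest, median and highest) in VE piglets, against 26.3, 48.1 and 62.4 CPM in C piglets, and 37.4, 42.7 and 55.8 CPM in VEHT piglets, against 22.1, 69.5 and 137 CPM in HT piglets. The level was tight with high vitamin E and spread widely with low vitamin E, whose lowest piglet in each diet lay below every high vitamin E piglet of its comparison. The log2 fold change of MAFF was -0.61 ± 0.193 (SE; edgeR q = 0.999), with -0.43 ± 0.175 in VE over C and -0.80 ± 0.337 in VEHT over HT. LONRF1, a protein with a RING finger of the ubiquitin ligase kind, had medians of 14.6 CPM in VE and 20.6 CPM in C, and of 19.8 CPM in VEHT and 27.9 CPM in HT. In VE 4 of 6 piglets lay below all C piglets, but in VEHT none lay below all HT piglets (log2 fold change -0.52 ± 0.168, edgeR q = 0.999).

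The other 7 genes of the 13 rested on few reads. SPMAP1, a sperm protein gene formerly named C17orf98, had 1 read in all VE libraries against 28 in C, and 2 reads in VEHT against 22 in HT. The ratio of summed rates was 0.0313 for VE over C (95% exact interval 0.000766 to 0.190, counting error only) and 0.0880 for VEHT over HT (0.0100 to 0.358). Every C and HT library had at least 1 read, while 5 of 6 VE and 5 of 6 VEHT libraries had none. The edgeR q of 0.347 was the smallest of all genes, DESeq2 gave q = 0.0282 and voom q = 0.00477. The unnamed gene ENSSSCG00000037285 had 53 reads in VE against 14 in C and 59 in VEHT against 13 in HT, with all 6 VEHT libraries above every HT library (log2 fold change 1.91 ± 0.423, edgeR q = 0.728, DESeq2 q = 0.0186, voom q = 0.0594). ENSSSCG00000010442 had 1 read in VE against 14 in C and 3 in VEHT against 75 in HT, with ratios of 0.0627 (0.00148 to 0.412) and 0.0387 (0.00781 to 0.118). These intervals too hold counting error only and not the spread between piglets. HT piglet G008 had 0.844 CPM, against 0 to 0.276 CPM in the other HT piglets.

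For PNPLA1, which makes acylceramides of the skin barrier, there were 3 reads in VE against 27 in C and 2 in VEHT against 18 in HT. ATOH7, a transcription factor of the retina, had 23 reads in VE against 3 in C and 16 in VEHT against 2 in HT. HTR3A, a subunit of the serotonin-gated ion channel, had 27 reads in VE against 2 in C and 16 in VEHT against 0 in HT. PCDH8, a protocadherin, had 13 reads in VE against 0 in C and 10 in VEHT against 1 in HT. In each of these 4 genes at least 2 libraries of the diet with more reads had none, and no fold change is given against the diets at 0.

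The other DESeq2 calls did not reach an unadjusted edgeR p below 0.05 in both comparisons. JAKMIP2, a Janus kinase and microtubule interacting protein, had 0.1004, 1.09 and 1.56 CPM (lowest, median and highest) in VE piglets, against 0, 0.0189 and 0.0220 CPM in C piglets, with no overlap. In VEHT piglets it had 0, 0.0868 and 3.00 CPM, against 0, 0.220 and 0.488 CPM in HT piglets, so that the VEHT median was the lower one and G162 alone lay above all HT piglets. The JAKMIP2 main effect was 3.58 ± 0.915 (edgeR q = 0.999, DESeq2 q = 0.0764) and 2.34 without VEHT piglet G162. ENSSSCG00000019258 had medians of 0.230 CPM in VE and 0.0428 CPM in C, without overlap, and of 0.147 CPM in VEHT and 0.0366 CPM in HT, where 4 of 6 piglets lay above all HT piglets (log2 fold change 1.87 ± 0.478, edgeR q = 0.999, DESeq2 q = 0.0541). ENSSSCG00000039664 was at 0 in all VE piglets and reached 33.0 CPM in C piglet G041 and 26.2 CPM in VEHT piglet G141, both immune-rich. Its main effect was -10.97 in DESeq2 (q = 0.00142) and -2.00 in edgeR (q = 0.999), and 0.58 in edgeR without the 3 libraries, and with a diet at 0 none of these is an estimate of size. For no gene were the 12 high vitamin E libraries clear of the 12 low ones, and VE did not overlap C for 108 genes (0.614%), 57 higher (0.324%) and 51 lower (0.290%). VEHT did not overlap HT for 18 genes (0.102%), 10 higher (0.0568%) and 8 lower (0.0454%), and no gene was in both sets.

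Among genes with a symbol, a mean of at least 1 CPM in at least 1 diet and the same direction in both comparisons, the 15 highest ranked by the main-effect p in each direction had log2 fold changes of 0.29 to 2.88 and of -0.61 to -0.26. None passed the edgeR threshold (q of 0.728 for SLC30A2 and 0.999 for the other 29), and their agreement in sign is fixed by how they were chosen. After SLC30A2 and MDFI came PSPH, the last enzyme of serine synthesis, and the list also held PHGDH, the first. PSPH had medians of 30.9 CPM in VE and 7.66 CPM in C without overlap, but 8.46 CPM in VEHT and 5.45 CPM in HT with wide overlap. For PHGDH the medians were 23.1 CPM in VE and 7.62 CPM in C, again without overlap, and 15.0 CPM in VEHT and 8.65 CPM in HT. Both were thus larger in VE over C, with log2 fold changes of 1.92 ± 0.276 and 1.50 ± 0.354 there and 0.22 ± 0.456 and 0.41 ± 0.418 in VEHT over HT. The same held for G0S2, the inhibitor of adipose triglyceride lipase (1.29 ± 0.318 and 0.29 ± 0.390), GPX8, a glutathione peroxidase of the endoplasmic reticulum (0.69 ± 0.185 and 0.04 ± 0.170), the neurotrophin receptor NGFR (2.17 ± 0.547 and 0.50 ± 0.675) and SPINK5, a serine protease inhibitor (2.77 ± 0.679 and 0.57 ± 0.864). The interaction of these 6 genes did not pass a q of 0.10 in edgeR, with q between 0.121 for PSPH and 0.407 for NGFR.

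The effect of BMP1 was nearly equal in both comparisons. BMP1, the protease that trims procollagens, had 150, 229 and 330 CPM (lowest, median and highest) in VE piglets, against 123, 159 and 221 CPM in C piglets, and 152, 187 and 232 CPM in VEHT piglets, against 95.2, 138 and 202 CPM in HT piglets. The groups overlapped in both comparisons (log2 fold change 0.44 ± 0.145, with 0.47 ± 0.216 in VE over C and 0.41 ± 0.204 in VEHT over HT). SERPINB11, a clade B serpin, had medians of 3.54 CPM in VE and 1.45 CPM in C, and of 1.06 CPM in VEHT and 0.480 CPM in HT, where 5 of 6 VEHT piglets lay above all HT piglets. Its main effect was a log2 fold change of 1.25. In its factorial model the study reported SERPINB11 for the hydroxytyrosol level, with higher expression in C and VE. The small GTPase gene MRAS had log2 fold changes of 1.07 ± 0.294 in VE over C and 0.45 ± 0.386 in VEHT over HT. TNK2, a tyrosine kinase, had 0.99 ± 0.270 and 0.37 ± 0.244, and PLPP2, a lipid phosphate phosphatase, 1.07 ± 0.325 and 0.32 ± 0.256. For MRPL34, a protein of the mitochondrial ribosome, the values were 0.44 ± 0.146 and 0.14 ± 0.142.

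The 15 lower genes of this ranking had main effects between -0.61 and -0.26. DCAF1, a substrate receptor of CUL4 ubiquitin ligases, had 27.3, 30.8 and 31.9 CPM (lowest, median and highest) in VE piglets, against 35.1, 37.6 and 48.6 CPM in C piglets, with no overlap. VEHT piglets had 28.3, 30.3 and 38.6 CPM, against 33.1, 36.5 and 40.0 CPM in HT piglets, with 4 of 6 below all HT piglets. The DCAF1 log2 fold change was -0.28 ± 0.0695 (edgeR q = 0.999). DCAF1 (DESeq2 q = 0.0570) and PHF8 (DESeq2 q = 0.0996) passed the DESeq2 q threshold but not the fold threshold, among 9 genes (0.0511%) past that q. MITF, a transcription factor of pigment cells and macrophages, had medians of 31.7 CPM in VE and 37.5 CPM in C, and of 33.3 CPM in VEHT and 41.8 CPM in HT. FKBP5, a co-chaperone of the glucocorticoid receptor, had 182 CPM in VE and 223 CPM in C, and 226 CPM in VEHT and 328 CPM in HT as medians. Histone demethylases PHF8 (-0.29 ± 0.0805) and KDM5A (-0.26 ± 0.0782), chromatin remodellers RSF1 (-0.39 ± 0.127) and CHD7 (-0.45 ± 0.149), and the RNA-handling genes GEMIN5 (-0.26 ± 0.0826), DDX3X (-0.29 ± 0.0937) and TGS1 (-0.27 ± 0.0896) lay within a narrow band of main effects. The non-muscle myosin MYH9 and the formin DIAPH1, which build actin cables, had VE piglets below all C piglets in 6 of 6 each, but in VEHT only 1 and 0 of 6 lay below all HT piglets. FAM118A had -0.15 ± 0.140 in VE over C and -0.60 ± 0.163 in VEHT over HT.

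**Figure D3:**
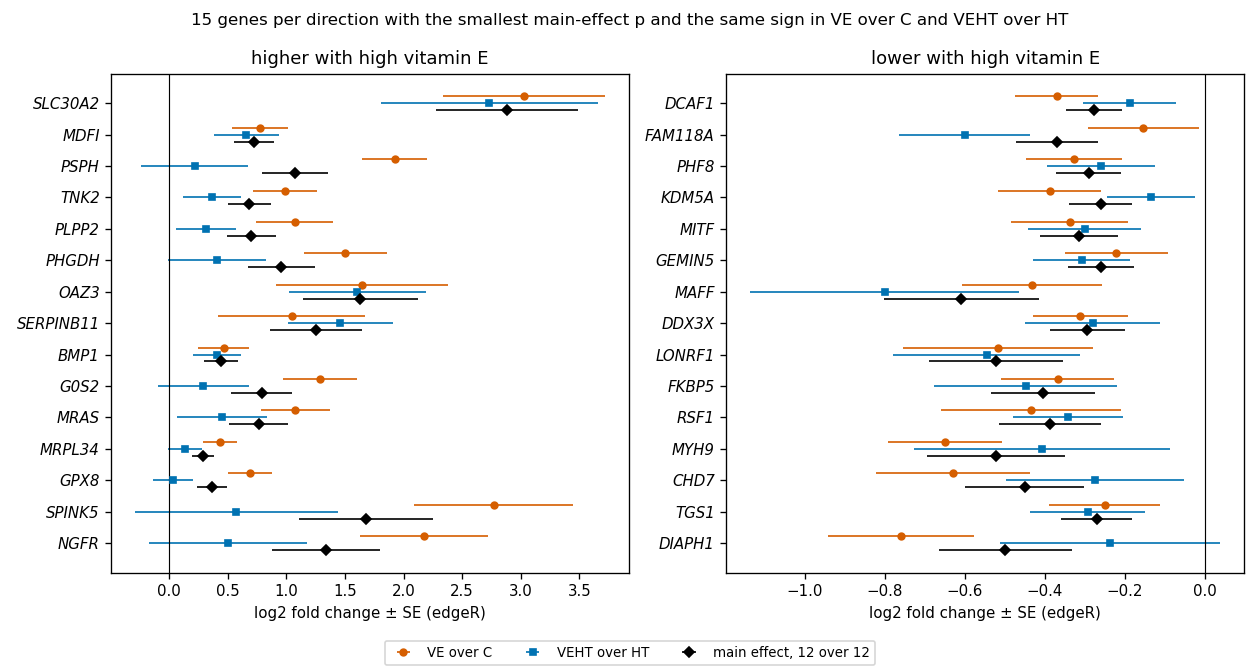
Log2 fold change ± SE (edgeR) of VE over C, VEHT over HT and the main effect for the 15 genes per direction with the smallest main-effect p, at least 1 CPM and the same sign in both comparisons. SLC30A2, at 2.88 ± 0.605, has the largest main effect, and PSPH (1.92 in VE over C and 0.22 in VEHT over HT) shows how far the comparisons can lie apart.

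Gene groups were described by 33 lists of functions and 18 lists of cell markers, set beside all genes, whose median main effect was -0.02 on the log2 scale, with a positive main effect in 8214 of 17602. No member of any list passed the edgeR test (0% of all genes did), with 691 genes at an unadjusted p below 0.05 among all genes, and the DESeq2 calls among their members were SLC30A2 and MDFI. The list on uptake, transport and breakdown of vitamin E had 12 tested genes, none at an unadjusted p below 0.05, and a median of 0.03. The same direction was seen in 3 of 11 (27.3%, against 38.0% of all genes). Its member SEC14L2, a tocopherol-binding protein, had 0.70 ± 0.412 in VE over C and 0.19 ± 0.399 in VEHT over HT. LPL, the lipase that frees fatty acids and vitamin E from lipoproteins, had 1.25 ± 0.362 in VE over C and -0.54 ± 0.372 in VEHT over HT (interaction -1.78, edgeR q = 0.0866). The cholesterol exporters ABCA1 and ABCG1, which also carry vitamin E out of cells, had main effects of -0.33 and -0.51. Besides SLC30A2, the zinc list of 24 tested genes had 1 member at an unadjusted p below 0.05, the zinc importer SLC39A4 (0.67 ± 0.271, with 0.64 in VE over C and 0.68 in VEHT over HT), and its median was -0.03. The zinc sensor MTF1 had -0.61 in VE over C and 0.25 in VEHT over HT. In the list of myogenic factors and their inhibitors, MDFI was the member at an unadjusted p below 0.05 among 20 tested genes. The same direction was seen in 8 of 19 (42.1%, against 38.0% of all genes).

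Antioxidant enzymes showed positive main effects in 23 of 26 tested genes, with a median of 0.18. With all 24 libraries 7 of the 26 had the same direction in both comparisons (26.9%, against 38.0% of all genes), and without the 3 immune-rich libraries 15 of 26 had (57.7%, against 55.3% of all genes). The median of the main effects was 0.115 without VEHT piglet G141. GPX8 and the paraoxonase PON3 were the members at an unadjusted p below 0.05. PON3 had 58.9, 84.8 and 124 CPM (lowest, median and highest) in VE piglets, against 6.00, 19.5 and 38.6 CPM in C piglets, without overlap, and 8.92, 48.8 and 99.8 CPM in VEHT piglets, against 15.4, 53.4 and 136 CPM in HT piglets. Catalase (0.37 and -0.32) and SOD1 (0.36 and -0.36) had opposite signs in VE over C and VEHT over HT, and so did GPX4 (0.59 and -0.20), the peroxidase of membrane lipid peroxides. Peroxiredoxins PRDX2 (0.17 and 0.25) and PRDX3 (0.21 and 0.25) and sulfiredoxin SRXN1 (0.16 and 0.64) had the same sign.

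In the fatty acid synthesis list, 18 of 24 genes had a positive main effect, with a median of 0.53 in VE over C and -0.09 in VEHT over HT. The same direction was seen in 6 of 24 (25%, against 38.0% of all genes). Without the 3 immune-rich libraries the medians were 0.38 and -0.08, with 45.8% in the same direction, against 55.3% of all genes. SCD, the desaturase that makes oleate, had 149.5, 653.8 and 2407 CPM (lowest, median and highest) in VE piglets, against 34.2, 81.5 and 214 CPM in C piglets. In VEHT piglets it had 33.7, 72.1 and 407 CPM, against 16.3, 34.2 and 368 CPM in HT piglets. Its main effect of 1.62 ± 0.572 (edgeR q = 0.999) combined 3.20 ± 0.633 with 0.05 ± 0.878. Malic enzyme ME1 (1.34 and 0.18) and the elongase ELOVL6 (1.53 and 0.06) had the same form, and neither overlapped between VE and C. Leptin, an adipocyte hormone, had 1.89 ± 0.596 in VE over C and -0.94 ± 0.823 in VEHT over HT, and JAZF1, a zinc finger protein, 1.11 ± 0.266 and -0.38 ± 0.335 (interaction -1.49, edgeR q = 0.0900). The adipocyte marker list had 0 of 8 genes in the same direction, with medians of 0.58 in VE over C and -0.44 in VEHT over HT. Without the 3 immune-rich libraries its medians were 0.09 and -0.225, with 37.5% in the same direction, beside 55.3% of all genes. The part of adipocyte content in these differences was not tested.

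Collagens had positive main effects in 19 of 22 genes and a median of 0.34, with 0.76 in VE over C and -0.00308 in VEHT over HT. The same direction was seen in 45.5% of them, against 38.0% of all genes. Without the 3 immune-rich libraries the medians were 0.56 in VE over C and 0.07 in VEHT over HT. In that set 68.2% had the same direction, against 55.3% of all genes. COL3A1, a fibrillar collagen, averaged 16250 CPM in VE and 7223 CPM in C, and 8521 CPM in VEHT and 8010 CPM in HT (log2 fold changes 1.17 and 0.09). All 12 small leucine-rich proteoglycans had a positive main effect, and 3 had the same direction in both comparisons (25%, against 38.0% of all genes). Without the 3 immune-rich libraries 33.3% had it, against 55.3% of all genes. OGN, which binds collagen fibrils, had 1.41 ± 0.250 and -0.36 ± 0.368 (interaction -1.77, edgeR q = 0.0625).

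**Figure D4:**
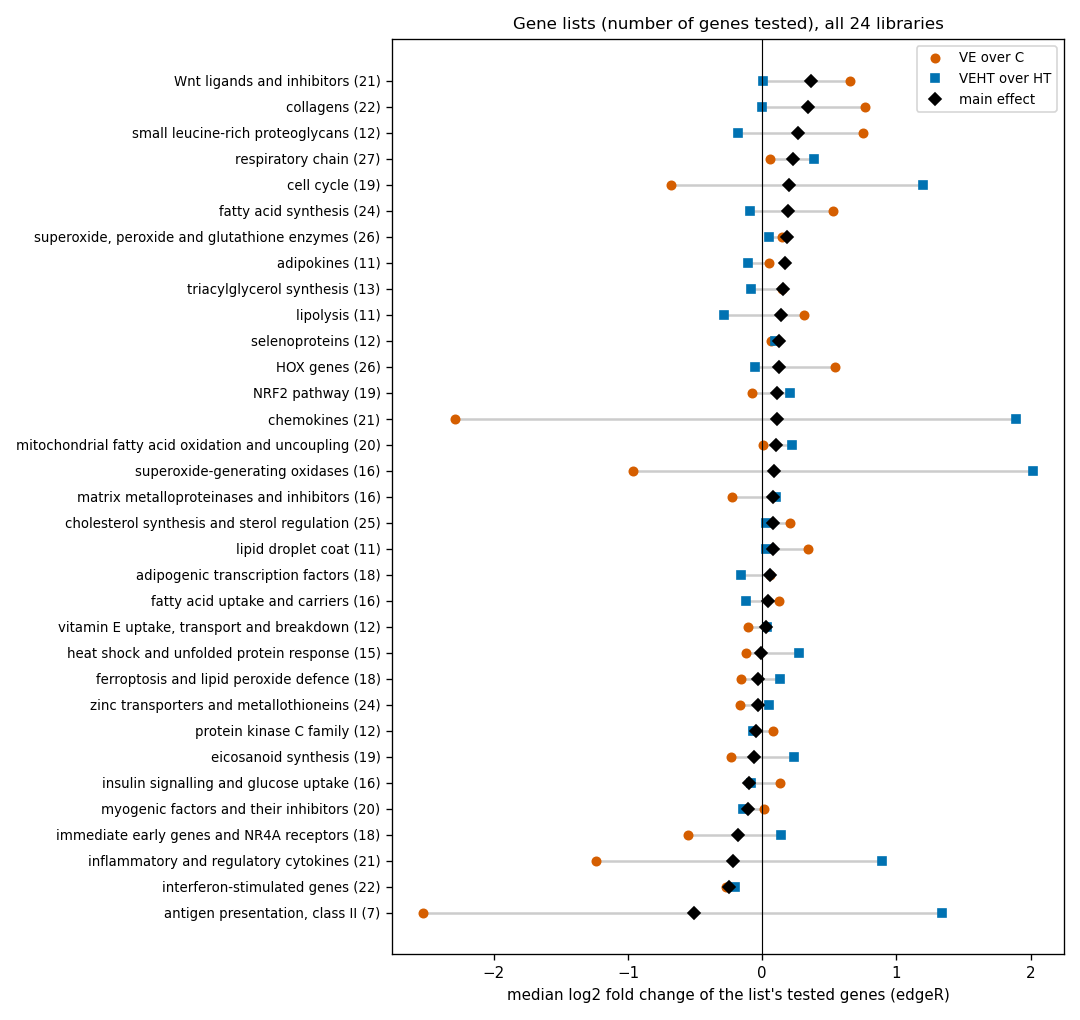
Median log2 fold change (edgeR) of each function list in VE over C, VEHT over HT and the main effect, with the number of tested genes in brackets. The respiratory chain (0.06, 0.39 and 0.23) and the interferon-stimulated genes (-0.27, -0.21 and -0.25) are among the lists whose medians keep their sign, while chemokines (-2.29 and 1.89) and class II presentation (-2.53 and 1.34) lie far apart. Without the 3 immune-rich libraries, which the plot includes, these were 0.20 and 0.52 for chemokines and -0.32 and 0.29 for class II presentation.

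The respiratory chain, the endothelial markers and the skeletal muscle markers had the highest shares of members with the same direction of all lists when all 24 libraries were used, with 20 of 27, 6 of 8 and 5 of 7. Without the 3 immune-rich libraries the counts were 17 of 27, 8 of 8 and 2 of 7, beside 55.3% of all genes. All 27 tested subunits of the respiratory chain and ATP synthase had a positive main effect, with a median of 0.23, and 20 of 27 (74.1%) were higher in both comparisons, against 17.1% of all genes. No member was at an unadjusted p below 0.05. The median was 0.06 in VE over C and 0.39 in VEHT over HT, a difference that was not tested for the list. ATP5MC1, a subunit of the ATP synthase rotor, averaged 111 CPM in VE and 108 CPM in C, and 144 CPM in VEHT and 80.8 CPM in HT, and NDUFA4 of the cytochrome oxidase complex had 165 CPM in VE and 139 CPM in C, and 230 CPM in VEHT and 145 CPM in HT. The summed level of the list ranged from 2299 to 8515 CPM with high vitamin E and from 2380 to 8382 CPM with low vitamin E, so that the groups overlapped fully. Skeletal muscle markers moved with it: 5 of 7 were higher in both comparisons, none of the 7 was at 0 in all libraries, and the piglet with the highest respiratory chain level in each diet (VE G179, C G025, VEHT G164 and HT G121) was also the one with the highest muscle level. The part of muscle RNA in the respiratory chain result was tested only as a covariate. With the muscle marker mean as a covariate the median of the respiratory chain was 0.14, without VE piglet G179 it was 0.13 and without C piglet G025 it was 0.36.

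Interferon-stimulated genes had a negative main effect in 19 of 22 members, with a median of -0.25, and 12 of 22 were lower in both comparisons, against 20.9% of all genes. None of the 22 was at an unadjusted p below 0.05. IFIT2, which binds viral RNA, averaged 31.2 CPM in VE and 42.5 CPM in C, and 32.5 CPM in VEHT and 60.7 CPM in HT (log2 fold change -0.67 ± 0.344), and RSAD2, an antiviral enzyme, 113 CPM in VE and 135 CPM in C, and 101 CPM in VEHT and 183 CPM in HT. The summed level of the list was 853 to 6442 CPM with high vitamin E and 1021 to 5767 CPM with low vitamin E, and VE piglet G091 and HT piglet G189 were the highest of their levels. Without VE piglet G091 the median was -0.52, without HT piglet G189 it was -0.09, and voom gave -0.05.

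Endothelial markers were negative in 8 of 8 genes, with a median of -0.24, and 6 were lower in both comparisons, against 20.9% of all genes. CDH5, the cadherin of endothelial junctions, averaged 220 CPM in VE and 244 CPM in C, and 212 CPM in VEHT and 302 CPM in HT. The lowest summed endothelial levels in VEHT (603 CPM, G141) and C (420 CPM, G047) were those of immune-rich libraries. Without the 3 libraries all 8 markers were lower in both comparisons, 4 of them at an unadjusted main-effect p below 0.05, with a median of -0.37. Of all genes in this reduced set, 4612 of 17375 were lower in both comparisons and 727 of 17620 were lower at that p. With all libraries and the macrophage marker mean as a covariate, the endothelial median was -0.07. Without C piglet G206 it was -0.13. Immediate early genes, which respond to stimulation without new protein synthesis, were negative in 14 of 18 members, and JUN (-0.46 ± 0.178) was the member at an unadjusted p below 0.05. FOS (-0.58 ± 0.310) and ATF3 (-0.87 ± 0.424) did not pass that value. JUN medians were 73.6 CPM in VE and 97.6 CPM in C, and 91.5 CPM in VEHT and 118 CPM in HT, with overlap. The median of the list was -0.18, and it was -0.36 without VEHT piglet G141 and -0.06 without C piglet G047. Without the 3 immune-rich libraries it was -0.17, with 12 of 18 members lower in both comparisons, beside 4612 of all 17375 genes. In that set 4 members were lower at an unadjusted p below 0.05, beside 727 of all 17620 genes.

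**Figure D5:**
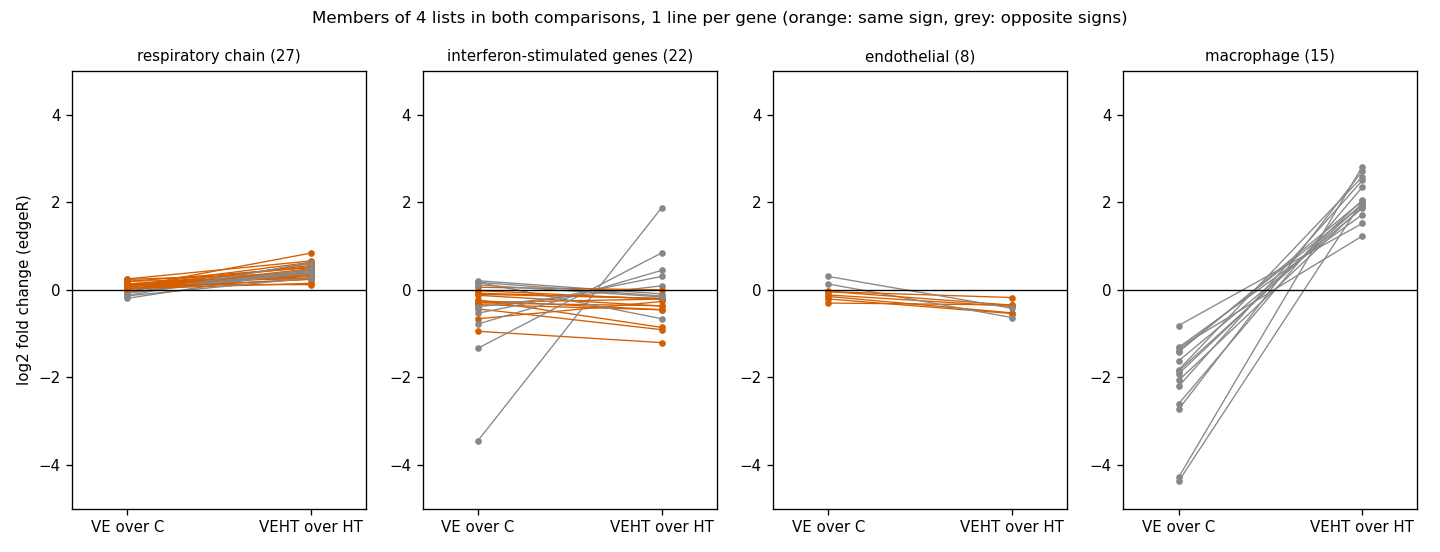
Log2 fold change (edgeR) in VE over C and VEHT over HT for each member of 4 lists, 1 line per gene, orange where the sign is the same in both comparisons. With all 24 libraries, the sign was the same in 20 of 27 respiratory chain genes, 13 of 22 interferon-stimulated genes, 6 of 8 endothelial markers and 0 of 15 macrophage markers.

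With all 24 libraries, immune markers differed in opposite directions. All 15 macrophage markers were lower in VE than in C and higher in VEHT than in HT, and the same sign was shared by 0 of 8 dendritic cell markers, 0 of 8 B cell markers, 1 of 13 T cell markers and 0 of 7 class II genes. Without the 3 immune-rich libraries, the sign was shared by 3 of 8 dendritic cell, 5 of 8 B cell and 2 of 13 T cell markers. For class II genes it was 0 of 7, beside 55.3% of all genes. The lysozyme gene LYZ had -4.29 in VE over C and 2.82 in VEHT over HT, and averaged 19.3 CPM in VE and 377 CPM in C, and 101 CPM in VEHT and 14.4 CPM in HT. TLR2, a receptor for bacterial lipoproteins, had medians of 7.14 CPM in VE and 9.04 CPM in C, and of 11.8 CPM in VEHT and 6.64 CPM in HT, but reached 205 CPM in C and 259 CPM in VEHT. CASP1, the inflammasome protease, had log2 fold changes of -3.23 ± 1.11 and 2.17 ± 0.903, and its highest piglets had 119 CPM in C and 104 CPM in VEHT. The main effects average these opposite differences, at 0.09 ± 0.682 for TLR2 and -0.54 ± 0.706 for CASP1.

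Without the 3 immune-rich libraries, 15 of 15 macrophage markers had a positive main effect, 13 were higher in both comparisons and the median was 0.68, though these libraries had been set apart by the same markers. Cell cycle genes were then higher in both comparisons in 15 of 19, beside 4988 of all 17375 genes, and in 0 of 19 with all libraries. Their median was 0.51 in this set and 0.20 with all libraries, -0.06 without VEHT piglet G141 alone, 0.52 without C piglet G047 alone and 0.02 with the macrophage covariate. The cholesterol synthesis list had 7 of 25 genes higher at an unadjusted p below 0.05 in this set, beside 597 of all 17620 genes, and 1 with all libraries. The same direction was seen in 8 of 25 genes in each set, where the share over all genes was 38.0% with all libraries and 55.3% in the reduced set. Genes named next were chosen after their values were seen, as examples of the 31 that went the same way in this reduced set. BLVRA, which reduces biliverdin to the antioxidant bilirubin, had 0.47 in VE over C and 0.37 in VEHT over HT, against -0.54 and 0.74 with all libraries, and LSP1, an actin-binding protein of leukocytes, 0.69 and 0.55. CYB561D2, a transmembrane reductase, had 0.77 and 0.45. On the lower side were the transcription factor ETS2 (-0.41 and -0.63), the arrestin ARRDC3 (-0.50 and -0.72) and APOLD1 (-0.84 and -1.64), an endothelial gene. SLC30A2 (3.23 and 2.98), MDFI (0.71 and 0.73) and MAFF (-0.55 and -0.87) were among the 31. No gene passed the edgeR threshold in the reduced set either, with the smallest q among the genes named here at 0.464 for SPMAP1 and with 597 genes higher and 727 lower at an unadjusted p below 0.05.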

How the data were processed

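Messenger RNA of dorsal subcutaneous fat from 24 piglets was sequenced on an Illumina instrument. Per the labels and the study's methods, the authors checked and trimmed reads with FastQC and Trim Galore, aligned them to Sscrofa11.1 with HISAT2 and deposited raw read counts per gene from HTSeq, versions, annotation and strand setting not given in the sources used here. Counts of 25880 identifiers, 14857 with a symbol, were used as deposited, and 5 summary rows (17.9 to 25.0% of reads per library) were left out. Genes at 0 in at least 75% of the libraries were dropped. The main test was edgeR's quasi-likelihood test (edgeR 4.0.16, R 4.3.3) with TMM factors in a 2 x 2 model with interaction. Each SE was derived from this test, as the size of the log2 fold change divided by the square root of its F statistic. VE over C and VEHT over HT were fitted on their own 12 libraries each, with p-values adjusted over all tested genes after Benjamini and Hochberg. A gene was called at q of at most 0.10 and a fold of at least 1.5. DESeq2 1.42.0 and limma 3.58.1 (voom with sample quality weights), RLE factors, other count filters and thresholds, an additive and a robust model, macrophage or muscle marker covariates, and fits without single libraries or without the 3 immune-rich ones were alternatives. The edgeR, DESeq2 and voom fits of the vitamin E effect were tested on simulated counts with known changes, voom for the main effect only. The other steps were not tested in this way. Genes were named if any tool called them, if they were among the 15 per direction with the smallest main-effect p (a symbol, the same direction and at least 1 CPM in a diet), if the study named them for this effect or measured them by qPCR, if they were up to 4 members per list with the smallest p, or if both comparisons had an unadjusted p below 0.05 in the same direction; further list members were chosen after their values were seen. GPX1 and SNORD123 were not matched by symbol and are not analysed here. The members and lists were chosen with earlier results of these data known. Figures were drawn with matplotlib 3.10.9 in Python 3.11.15.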

Additional observations from a re-analysis of the deposited data

Results flagged for a closer look

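Of 61 groups of 6 piglets examined, 14 held a library far from the other 5 by Dixon's test. Its rate of about 1 in 20 groups holds for normally distributed levels, which was not checked for these CPM values. The 14 are therefore not set against that rate. Most were genes with few reads. In 5 of the 14 the library was the only one of its diet with any read, so that any read met the test and that rate does not apply: both of SPMAP1, VE piglet G091 for ENSSSCG00000010442, and HT piglets G012 for PCDH8 and G196 for ATOH7. SPMAP1 had 0.0148 CPM in VE piglet G127 and 0.0429 CPM in VEHT piglet G141, where the rest of each diet was at 0. ENSSSCG00000010442 had 0.0190 CPM in VE piglet G091 and 0.844 CPM in HT piglet G008. PCDH8 had 0.182 CPM in VEHT piglet G164 and 0.0239 CPM in HT piglet G012, PNPLA1 had 0.374 CPM in C piglet G025 and ATOH7 had 0.0357 CPM in HT piglet G196. JAKMIP2 reached 3.00 CPM in VEHT piglet G162, OAZ3 5.34 CPM in C piglet G025 and MAFF 40.9 CPM in VE piglet G179. ENSSSCG00000039664 had 26.2 CPM in VEHT piglet G141, 33.0 CPM in C piglet G041 and 0.118 CPM in HT piglet G008.

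Among the 78 genes named in the report, all tested for the interaction, the vitamin E effect differed between the hydroxytyrosol levels in 7 at an edgeR q of at most 0.10. This was with all libraries, and the interaction was not fitted without the immune-rich ones. The interaction (VEHT over HT minus VE over C, log2) was -1.49 for JAZF1, -1.77 for OGN, -1.78 for LPL, 5.39 for CASP1, 6.03 for TLR2 and 7.10 for LYZ. For ENSSSCG00000039664 it was 18.9, but all 6 VE libraries were at 0 and the levels were highest in VEHT piglet G141 and C piglet G041, so that this value is no estimate of size.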

How the results depend on the processing

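The count of 0 genes called for the main effect was 7 with DESeq2, 2 with voom, 1 with the macrophage covariate and 0 to 1 when single libraries were left out (SPMAP1, edgeR q = 0.0824, without VEHT piglet G141). For VE over C the count of 0 was 878 with DESeq2, 5 with the macrophage covariate and 0 to 1 when single libraries were left out, the 1 call appearing when G041 of diet C or G077 of diet VE was left out. For VEHT over HT it was 119 with DESeq2. Direction was reversed for ENSSSCG00000039664 (0.51 with voom, 0.58 without the 3 immune-rich libraries) and CASP1 (0.48 and 0.51 under the same settings). TLR2 (0.09) was reversed in 6 fits that left out 1 library each, and over all such fits it ranged from -0.95 without VEHT piglet G141 to 0.51 without C piglet G047, and it was 0.65 without the 3 libraries. The cause was not tested. No paired analysis was possible because the columns carry no replicate number. Counts of few reads limit SPMAP1 and the other genes under 1 CPM.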
